A study of Mus musculus with 12 samples.

Results

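The genes described here are 10 genes known for their expression in astrocytes, followed through brain tissue of mice that lack exon 7 of Auts2, a regulator of brain development. They were chosen by name from known astrocyte transporters, channels and secreted proteins, and were matched by symbol to 10 of the 55487 gene identifiers measured. They are the glutamate transporters Slc1a2 and Slc1a3, the water channel Aqp4, the connexins Gja1 and Gjb6, the bicarbonate transporter Slc4a4, the intermediate filament Gfap, the folate enzyme Aldh1l1, the secreted protein Sparcl1 and the actin-associated protein Fam107a. All 10 passed the filter on low counts in every comparison, so no member is missing from any test below.

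The study sequenced RNA of 12 male mice, 3 in each of 4 groups, 1 library per mouse. At postnatal day 0 (P0) the tissue was forebrain, from Auts2-ex7-/- mice made with Cmv-cre, which drives recombination in all tissues, and from wild-type BL6 littermates. At postnatal day 14 (P14) the tissue was hippocampus, from knockouts made with Nes-cre, which is active in neural progenitors and so in the neurons and glia they form, and from controls heterozygous for the floxed exon 7 allele (flox-het). The labels do not say whether the flox-het mice carry Nes-cre, so they may or may not have lost exon 7 from 1 allele. The knockouts of both ages are homozygous for the exon 7 deletion, the deletion at P14 is limited to cells of the Nes-cre lineage, and the P0 and P14 comparisons differ in tissue, age, Cre line and the genotype of the controls.

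Astrocytes take up the glutamate and potassium that neurons release, couple to one another through gap junctions, and place water channels on the processes that wrap blood vessels. They form from radial glia around birth and mature over the first postnatal weeks, and the genes of their transport functions are switched on gradually during this time. Glutamate taken up by the transporters is turned into glutamine and handed back to neurons. Gfap is best known for its rise in reactive astrocytes, while Aldh1l1 is often used to mark astrocytes in general.

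Total gene counts were between 11247150 and 16796797 per P0 library and between 16830720 and 23340621 per P14 library. Levels are given as CPM, read counts relative to library size, with sizes scaled by the TMM method over all 12 libraries. The 2 P0 libraries numbered 1415 and 1416, replicate 3 of each genotype, belong to a later number series than the libraries numbered 1407 to 1410. Auts2 itself, counted over all its isoforms, was at 167 ± 10.1 CPM in P0 knockouts and 149 ± 13.0 CPM in wild types, and at 82.2 ± 10.7 CPM in P14 knockouts and 103.9 ± 7.52 CPM in flox-het controls (SD, n = 3 each). Neither difference passed the threshold (edgeR adjusted p 0.362 and 0.111). Counts per gene do not measure exon 7 and so do not check the labels.

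The levels of the astrocyte genes were first set against each other and across the 4 groups, on a scale of CPM per kilobase of the longest transcript so that genes can be compared. In P0 wild-type forebrain Sparcl1, a secreted glycoprotein that promotes synapse formation, had the highest level, at 162 ± 26.8 CPM per kilobase (SD, n = 3). Slc1a3, the glutamate transporter also used by radial glia, followed at 62.9 ± 8.88. Gja1 (21.7 ± 3.68), Gfap (18.1 ± 5.85) and Slc1a2 (14.4 ± 1.65) came next, with Gfap overlapping both of its neighbours. Aldh1l1 (10.5 ± 0.339), Aqp4 (9.14 ± 1.68) and Slc4a4 (8.56 ± 1.01) lay below Slc1a2 and overlapped one after the other, and Gjb6 (2.91 ± 0.937) and Fam107a (1.71 ± 0.543) were lowest and overlapped. The middle of the order depends on the length used: with the union of all exons as length Gja1 drops from rank 3 to rank 6, Slc1a2 moves from rank 5 to rank 3 and Aldh1l1 from rank 6 to rank 5.

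In P14 flox-het hippocampus the same scale gave another order. Sparcl1 still had the highest level, at 685 ± 59.5 CPM per kilobase, and Slc1a2, the main glutamate transporter of mature astrocytes, was now next at 371 ± 5.50, ahead of Slc1a3 at 224 ± 10.4. Gfap stood at 158 ± 11.3 and Fam107a, lowest at P0, at 118 ± 22.6. Gja1 (86.5 ± 6.23), Aqp4 (61.6 ± 9.71), Slc4a4 (36.2 ± 3.15), Gjb6 (24.9 ± 6.66) and Aldh1l1 (11.2 ± 1.67) followed, and in this group no 2 neighbours in the order overlapped. With the union of exons as length, Fam107a moves from rank 5 to rank 4 and Aqp4 from rank 7 to rank 6.

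**Figure D1:**
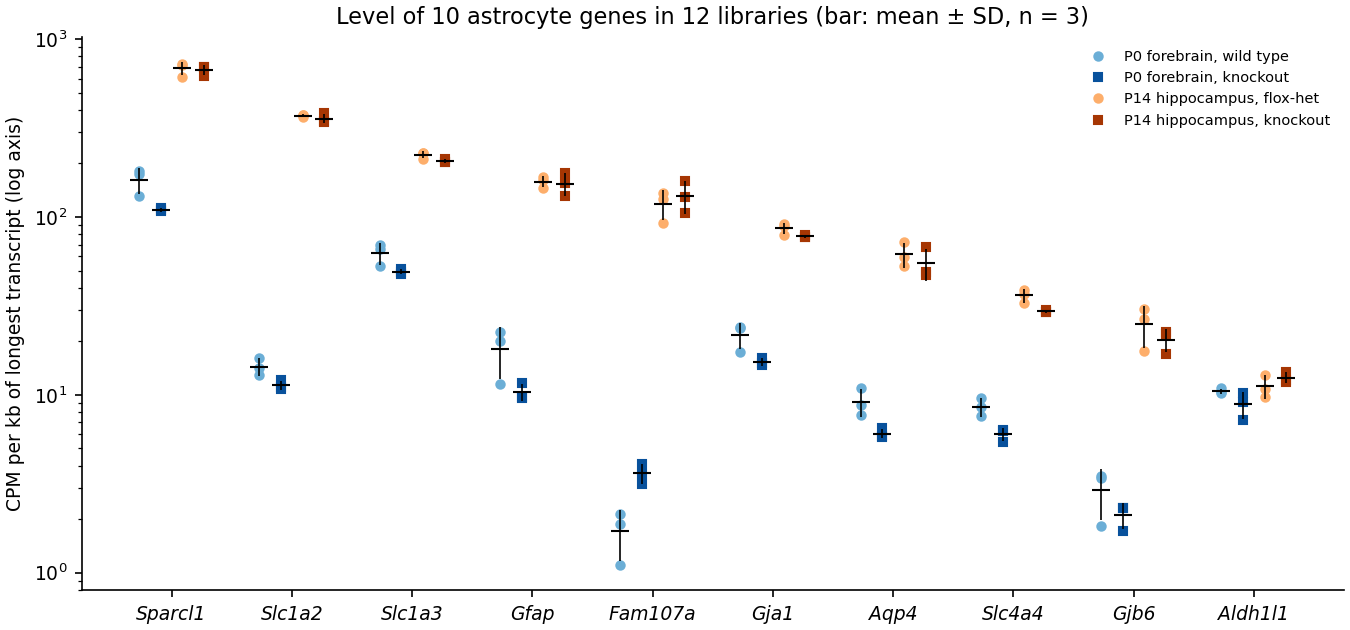
Level of each astrocyte gene in the 12 libraries, in CPM per kilobase of the longest transcript on a log axis; points are libraries and the bars are the mean ± SD of 3. Genes are ordered by their P14 flox-het level, and 9 of them sit higher at P14 than at P0 in every library, while the Aldh1l1 points of all 4 groups lie close together.

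The controls of the 2 ages were compared in a fit of all 12 libraries. Tissue, age and control genotype change together in this comparison and cannot be told apart. Of the 10 astrocyte genes, 9 were higher in P14 flox-het hippocampus than in P0 wild-type forebrain and none was lower (edgeR quasi-likelihood test, Benjamini-Hochberg adjusted p under 0.05, referred to below as called). Of all 18189 genes tested, 64.0% were called, 32.3% higher and 31.7% lower, so calls were common in this comparison. The control libraries of the 2 ages did not overlap for the same 9 members, all higher at P14, against 36.0% of all genes higher and 31.5% lower without overlap. The median log2 fold change of the members was 2.37, and that of all tested genes was -0.004.

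Fam107a differed most, by 6.11 on the log2 scale (SE 0.27, edgeR adjusted p 1.43e-08). Its level was 6.28, 7.16 and 3.68 CPM in the wild types at P0 and 454, 419.9 and 309.9 CPM in the flox-het libraries at P14. Slc1a2 was higher by 4.64 (SE 0.10, edgeR adjusted p 5.22e-20). These are changes of 68.9 and 24.9 times. Gfap and Gjb6 were each higher by 3.09 (edgeR adjusted p 1.81e-06 and 1.76e-06), and Aqp4 by 2.71 (edgeR adjusted p 1.02e-07). Slc4a4 (2.03), Sparcl1 (2.03), Gja1 (1.95) and Slc1a3 (1.78) were called with edgeR adjusted p from 2.03e-14 to 2.75e-13. All 9 kept their call in each of the 12 fits that left out 1 library and under the 8 other settings tried.

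Aldh1l1 was the exception. Its CPM were 42.6, 45.4 and 43.5 in P0 wild types and 45.3, 54.3 and 40.5 in P14 flox-het libraries, so the groups overlapped. The log2 difference was 0.05 (SE 0.11, edgeR adjusted p 0.745), and it changed sign with upper-quartile normalization (-0.05) and without flox-het replicate 2 (-0.07). Exons of Aldh1l1 overlap those of Gm15756 and Gm45901 over 604 bp and exons of Slc1a2 overlap Gm13872 over 189 bp. Reads were counted without strand, so reads in those stretches could not be assigned to 1 gene. The other 8 members overlap no other exon.

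The P0 comparison asked what loss of the exon in the whole animal does to the newborn forebrain. Of the 10 astrocyte genes, 9 had a lower mean in knockouts than in wild types, and Fam107a had a higher one. Sparcl1, Aqp4 and Slc4a4 fell and Fam107a rose, so 4 of 10 were called, against 0.909% of all 16176 genes tested (0.717% lower and 0.192% higher). The median log2 fold change of the 10 was -0.48, and that of all tested genes was -0.0003. The knockout and wild-type libraries did not overlap for 7 members, 6 lower and 1 higher, against 21.7% of all tested genes. An unadjusted p under 0.05 was reached by 9 members and by 16.1% of all tested genes. The sum of the 10 genes was 869 to 875 CPM in the knockouts and 995 to 1329 CPM in the wild types. In whole tissue, fewer astrocytes, less of these RNAs per astrocyte and a change in other cells that express them cannot be told apart.

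**Figure D2:**
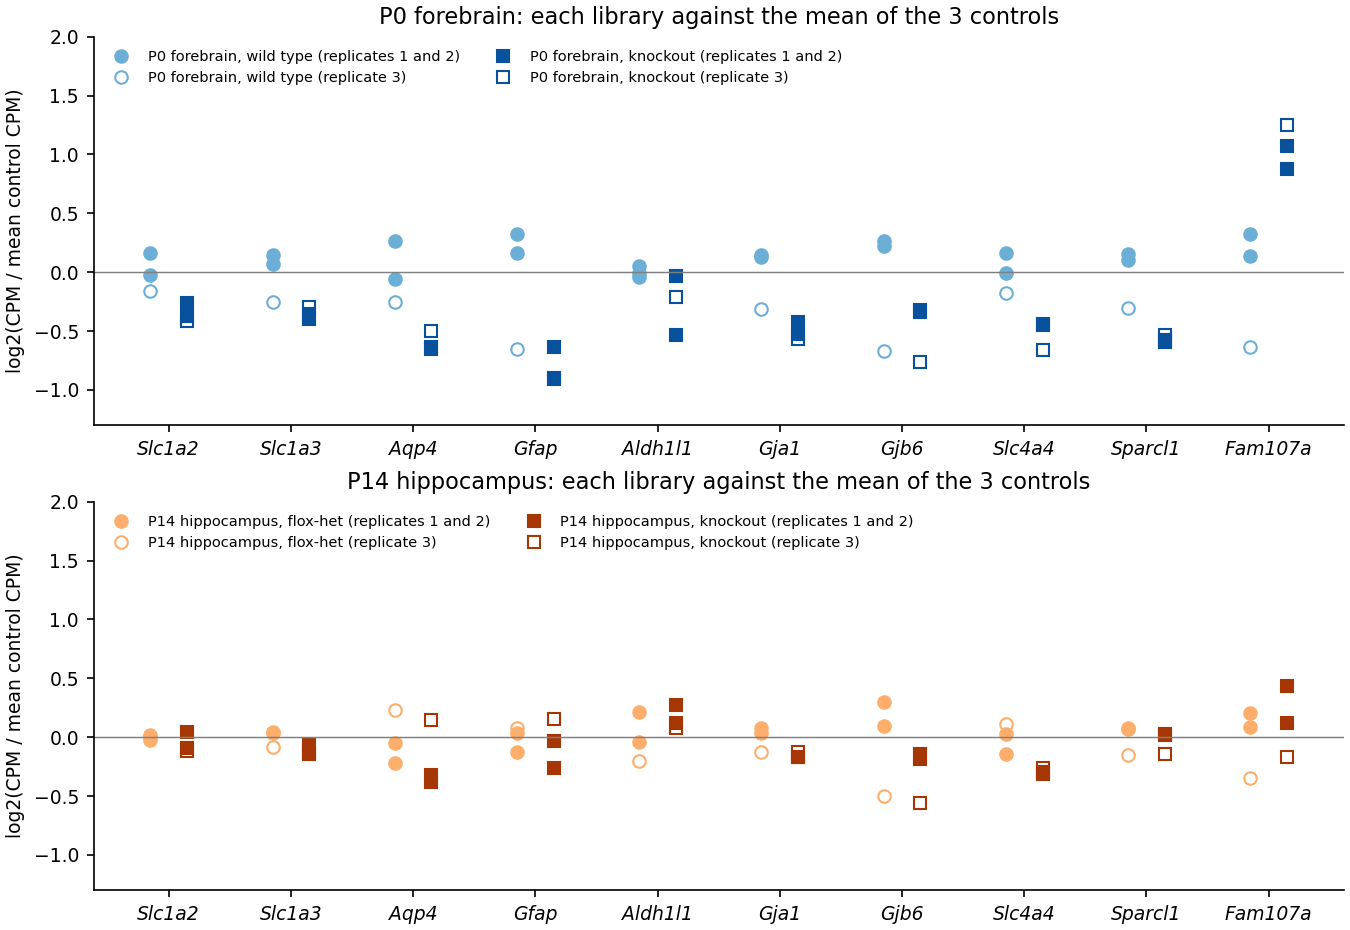
Each library's CPM over the mean CPM of the 3 control libraries of the same age, on the log2 scale, for P0 forebrain (upper panel) and P14 hippocampus (lower panel); circles are controls, squares are knockouts and open symbols are replicate 3. At P0 the 3 knockout squares lie below the line for 9 genes and above it for Fam107a, with the open wild-type circle nearest to the knockouts for many of the genes, while at P14 squares and circles mix for every gene except Slc4a4.

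The glutamate transporters were examined first. Slc1a2 (ENSMUSG00000005089, chromosome 2 from 102658659 to 102790784, plus strand, GRCm38) was at 129, 139.8 and 125 CPM in the P0 knockouts and at 188, 164 and 150.0 CPM in the wild types. Slc1a3 (ENSMUSG00000005360, chromosome 15 from 8634124 to 8710764, minus strand) was at 212, 218 and 227 CPM in the knockouts and at 309.6, 293 and 235 CPM in the wild types. Every knockout library was below every wild-type library for both genes, with wild-type replicate 3 the nearest to the knockouts. The log2 fold changes were -0.35 (SE 0.09, edgeR adjusted p 0.0766) and -0.36 (SE 0.09, edgeR adjusted p 0.0868), neither past the threshold. Each was called in 1 of the 6 fits that left out a library, the one without wild-type replicate 3 (-0.42 and -0.46, edgeR adjusted p 0.0464 and 0.0133). For both genes the p of an exact permutation test (two-sided) was 0.1, the smallest possible with 3 against 3, and this holds for every member whose groups did not overlap.

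Aqp4 (ENSMUSG00000024411, chromosome 18 from 15389496 to 15410982, minus strand) encodes the water channel of astrocyte endfeet. It was at 29.8, 29.4 and 32.7 CPM in the P0 knockouts and at 55.4, 44.4 and 38.8 CPM in the wild types. The groups did not overlap, the knockouts lay close together and the wild types were spread. The log2 fold change was -0.59 (SE 0.12, edgeR adjusted p 0.0416), so that the knockout level was 0.663 of that of the wild types. The call was kept without knockout replicate 3 (-0.63) or wild-type replicate 3 (-0.70). It was lost without knockout replicate 1 (-0.57), knockout replicate 2 (-0.56), wild-type replicate 1 (-0.44) or wild-type replicate 2 (-0.62), with edgeR adjusted p from 0.1504 to 0.233. Over all genes, the fits that lost it called only 1, 15, 2 and 1, in the same order, against 147 with all 6 libraries. The Aqp4 call was also lost in the larger strand column (-0.60, edgeR adjusted p 0.055) and in 1 fit of all 12 libraries (-0.59, edgeR adjusted p 0.1595).

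The connexins form the gap junctions that couple astrocytes. Gja1 (connexin 43; ENSMUSG00000050953, chromosome 10 from 56377330 to 56402513, plus strand) was at 62.8, 58.7 and 56.9 CPM in the P0 knockouts and at 92.0, 93.2 and 67.8 CPM in the wild types, with no overlap. Its log2 fold change of -0.51 (SE 0.12, edgeR adjusted p 0.0569) missed the threshold, and passed it without wild-type replicate 3 (-0.64, edgeR adjusted p 0.00677). Gjb6 (connexin 30; ENSMUSG00000040055, chromosome 14 from 57123303 to 57133611, minus strand) appears late in astrocyte maturation and was low at P0, at 4.84, 4.89 and 3.62 CPM in knockouts and 7.36, 7.16 and 3.85 CPM in wild types. Its groups overlapped, through the lowest wild type, replicate 3, and its log2 fold change was -0.46 (SE 0.25, edgeR adjusted p 0.407). Its counts in the P0 libraries were 60 to 90 reads.

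Slc4a4 (ENSMUSG00000060961, chromosome 5 from 88886818 to 89239653, plus strand) encodes a sodium bicarbonate cotransporter that astrocytes use in the control of pH. It was at 49.8, 50.2 and 43.0 CPM in the P0 knockouts and at 76.0, 67.7 and 60.0 CPM in the wild types. The groups did not overlap. The log2 fold change was -0.52 (SE 0.10, edgeR adjusted p 0.0390), and it was nearly the same in the first number series (-0.52) and in the pair of the second (-0.48). The call was lost without knockout replicate 1 (-0.55), knockout replicate 2 (-0.55), wild-type replicate 1 (-0.43) or wild-type replicate 2 (-0.51), and kept without knockout replicate 3 (-0.44) or wild-type replicate 3 (-0.59). As for Aqp4, the fits that lost it called only 1 to 15 genes in all. Slc4a4 lies on the same chromosome as Auts2, 42.2 Mb away, and Sparcl1 lies 27.3 Mb away.

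Gfap and Aldh1l1, the filament and the enzyme, both overlapped between the P0 groups. Gfap (ENSMUSG00000020932, chromosome 11 from 102887336 to 102900912, minus strand) was at 25.6, 30.8 and 25.6 CPM in the knockouts and at 53.5, 59.8 and 30.4 CPM in the wild types. Its mean difference was the greatest of the 9 lower ones, at -0.81 on the log2 scale, and so was its error (SE 0.26, edgeR adjusted p 0.219). Without wild-type replicate 3 the log2 fold change was -1.06 (edgeR adjusted p 0.00162), and without wild-type replicate 2 it was -0.61 (edgeR adjusted p 0.393). Aldh1l1 (ENSMUSG00000030088, chromosome 6 from 90486427 to 90600203, plus strand) was at 42.7, 30.2 and 37.8 CPM in the knockouts and at 42.6, 45.4 and 43.5 CPM in the wild types. Its log2 fold change of -0.25 (SE 0.11, edgeR adjusted p 0.295) passed in none of the 6 fits that left out a library and under none of the 11 other settings.

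Sparcl1 (ENSMUSG00000029309, chromosome 5 from 104079111 to 104113733, minus strand) was at 300.2, 297 and 309 CPM in the P0 knockouts and at 499, 481 and 363 CPM in the wild types. The 3 knockouts lay close together and all were below the wild types. The log2 fold change was -0.57 (SE 0.10, edgeR adjusted p 0.0345). The call was kept only without wild-type replicate 3 (-0.70, edgeR adjusted p 0.000878), and in the other 5 fits that left out a library the log2 fold change was between -0.58 and -0.49 with edgeR adjusted p from 0.1145 to 0.186. Over all genes, 775 were called without knockout replicate 3, and only 1 to 15 in the rest of these 5 fits.

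Fam107a (ENSMUSG00000021750, chromosome 14 from 8296274 to 8318023, minus strand) encodes an actin-bundling protein known to be induced by stress and glucocorticoids. It went the other way, at 12.03, 10.5 and 13.6 CPM in the P0 knockouts and 6.28, 7.16 and 3.68 CPM in the wild types. The groups did not overlap. The log2 fold change was 1.10 (SE 0.21, edgeR adjusted p 0.0369), a level 2.14 times that of the wild types, from counts of 67 to 226 reads per library. The difference was 0.73 within the first number series and 1.85 in the pair of the second. The call was kept without knockout replicate 3 (1.01) or wild-type replicate 3 (0.84). It was lost without knockout replicate 1 (1.10), knockout replicate 2 (1.19), wild-type replicate 1 (1.18) or wild-type replicate 2 (1.31), fits that called only 1 to 15 genes in all. The Fam107a call was also lost in 1 fit of all 12 libraries (1.13, edgeR adjusted p 0.1065). Of 11 tested genes known to be induced by glucocorticoids, 0 were called at P0 by edgeR and 0 by DESeq2. An unadjusted p under 0.05 by edgeR was reached by 4, against 16.1% of all tested genes, and their median log2 fold change was 0.01. Without overlap of the P0 groups, 3 were higher in knockouts and 1 was lower, against 10.5% and 11.1% of all tested genes. The part of glucocorticoids in the Fam107a difference was not tested.

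The sequences before the start sites of Fam107a and Slc4a4 are shown because these genes moved in opposite directions at P0. Both are RefSeq sequences on GRCm38.p6, written 5′ to 3′ in the direction of the gene. Windows of 8 of the 10 members were searched, 11 windows of 250 bases before a start site in all. Aqp4 and Sparcl1, both called at P0, were not among them, so their sequences are not described. The Fam107a window is chr14:8309796-8310029 on the minus strand, 234 bases long after 16 bases of annotated exon were removed. Its start site, at base 8309779, is internal, since the gene on the minus strand begins at base 8318023. The Slc4a4 window is chr5:89027716-89027965 on the plus strand, 250 bases before an internal start site that lies in an intron of the longer transcripts. Capitals mark the half-site of nuclear factor I (NFI) proteins, TTGGCA, and the glucocorticoid receptor half-site TGTTCT, or AGAACA on the other strand.
Fam107a: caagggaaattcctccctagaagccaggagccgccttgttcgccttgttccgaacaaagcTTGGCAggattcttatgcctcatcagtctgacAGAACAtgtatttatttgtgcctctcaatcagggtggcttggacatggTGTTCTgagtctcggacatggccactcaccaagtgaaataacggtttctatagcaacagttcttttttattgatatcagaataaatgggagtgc
Slc4a4: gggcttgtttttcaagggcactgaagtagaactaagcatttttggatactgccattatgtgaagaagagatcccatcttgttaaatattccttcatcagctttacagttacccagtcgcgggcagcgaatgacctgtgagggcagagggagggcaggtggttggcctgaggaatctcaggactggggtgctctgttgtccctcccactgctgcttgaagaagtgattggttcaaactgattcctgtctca
In the Fam107a window TTGGCA stands 190 bases before the start site, AGAACA 158 bases and TGTTCT 110 bases before it, and the Slc4a4 window holds none of the motifs searched. These motifs, read on both strands, were chosen after the values had been seen. TTGGCA occurs in 12.3% and TGTTCT in 16.1% of all 32851 windows, so a match is common, and it describes letters and no binding. The full palindromic sites of NFI (0.0365% of windows) and of the glucocorticoid receptor (0.00913%) occur in none of the 11 member windows searched. The STAT site TTCNNNGAA (7.02%) occurs in 1, that of Slc1a3. The same Slc1a3 window also holds AGAACA, 24 bases before its start site, and Slc1a3 had a lower mean in the P0 knockouts. So the glucocorticoid receptor half-site was found in members of both directions.

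The P0 wild-type libraries had a greater SD in CPM than the knockouts for every member but Aldh1l1. Its SD was 6.31 CPM in knockouts and 1.42 CPM in wild types. Wild-type replicate 3 was the lowest of the wild types for 9 of the 10 members, Fam107a among them, and was in the middle for Aldh1l1. Fitted with the number series as a term, 8 members were called, 7 lower and Fam107a higher, against 2.87% of all genes. In the 4 libraries of the first series alone, a setting added after the depths had been seen, 8 members were called, against 12.9% of all genes. Aldh1l1 and Gjb6 were the exceptions in both. The pair of the second series gave lower values in the knockout for all 9 genes that were lower in the first, and it has no test of its own. Its log2 difference was smaller in size than that of the first series for each of the 9: -0.23 against -0.71 for Sparcl1, -0.24 against -0.74 for Aqp4, -0.25 against -1.01 for Gfap, -0.25 against -0.61 for Gja1 and -0.05 against -0.49 for Slc1a3. The values were -0.09 against -0.57 for Gjb6, -0.26 against -0.39 for Slc1a2, -0.20 against -0.29 for Aldh1l1 and, as above, -0.48 against -0.52 for Slc4a4.

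**Figure D3:**
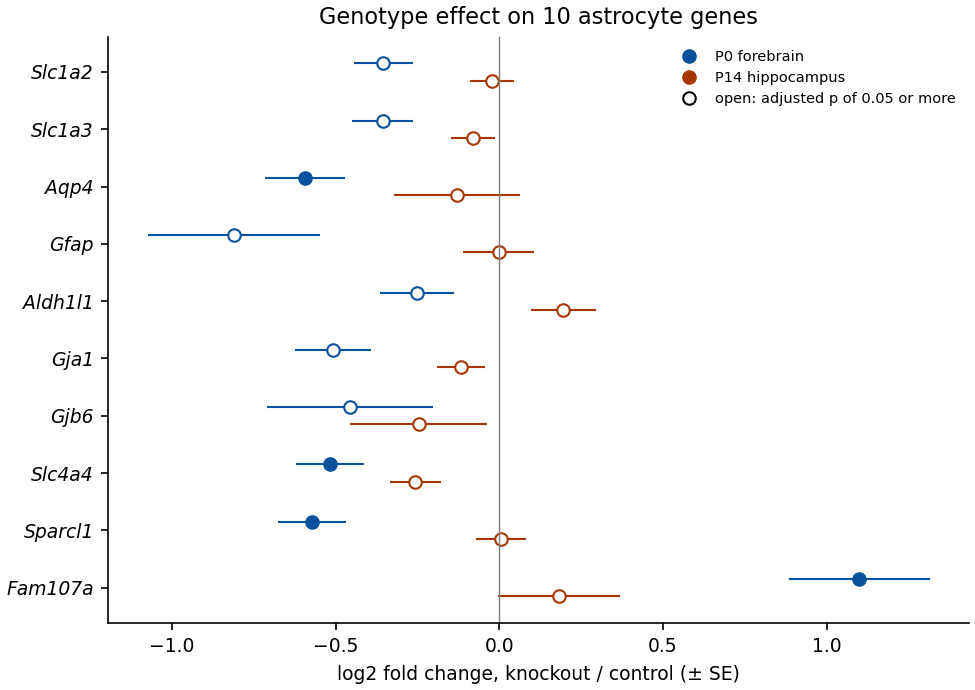
Log2 fold change of each astrocyte gene, knockout over control, ± SE, for P0 forebrain (blue) and P14 hippocampus (brown); filled points have an edgeR adjusted p under 0.05 over all genes tested. The 4 filled points are Aqp4, Slc4a4 and Sparcl1 to the left of 0 and Fam107a to the right, all at P0.

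In P14 hippocampus, where the exon was lost in the neural lineage only, no astrocyte gene was called. The count was 0 of 10 with edgeR or with DESeq2, against 1.99% of the 17208 genes tested with edgeR (1.21% higher and 0.773% lower), and 1 (Slc4a4) had an unadjusted p under 0.05, against 15.2%. The median log2 fold change was -0.05, and that of all tested genes was -0.007. The sum of the 10 genes was 8368 to 9017 CPM in the knockouts and 8815 to 9162 CPM in the flox-het controls, so the ranges overlapped.

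Slc4a4 was the member whose P14 groups did not overlap, 1 of 10 against 21.0% of all genes tested (7.63% higher and 13.4% lower). It was at 233, 231 and 239 CPM in the knockouts and at 260.1, 292 and 309 CPM in the flox-het libraries. The log2 fold change of -0.26 (SE 0.08, edgeR adjusted p 0.112) missed the threshold. The glutamate transporters were abundant and tightly measured. Slc1a2 was at 4036, 4428 and 3962 CPM in the knockouts and 4319, 4238 and 4364 CPM in the controls, a log2 fold change of -0.02 (SE 0.07). Slc1a3 was at 944, 904 and 901 CPM in the knockouts and 1022, 1015 and 939 CPM in the controls, a log2 fold change of -0.08 (SE 0.07). For Slc1a2 the highest library was a knockout, and for Slc1a3 the highest knockout was just above the lowest control, so the groups overlapped for both.

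Sparcl1, which fell at P0, was at 1911, 1931 and 1713 CPM in the P14 knockouts and 1989, 1980.5 and 1701 CPM in the controls (0.00, SE 0.08). Aqp4 was at 249, 239.5 and 344 CPM in the knockouts and 268, 301 and 365 CPM in the controls (-0.13, SE 0.19). Fam107a was at 429, 533 and 351 CPM in the knockouts and 454, 419.9 and 309.9 CPM in the controls (0.18, SE 0.19). For each of these genes the groups overlapped and the edgeR adjusted p was above 0.7, from 0.723 to 0.986. In both groups replicate 3 had the lowest Slc1a3, Aldh1l1, Gjb6, Sparcl1 and Fam107a and the highest Aqp4, Gfap and Slc4a4.

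The remaining members overlapped too. Gja1 was at 299, 299 and 309 CPM in the P14 knockouts and 355, 345 and 309 CPM in the controls (-0.12, SE 0.07). Gfap was at 409, 348 and 465 CPM in the knockouts and 385, 429.8 and 442 CPM in the controls (-0.00, SE 0.11). Aldh1l1 was at 50.9, 56.3 and 49.4 CPM in the knockouts and 45.3, 54.3 and 40.5 CPM in the controls (0.20, SE 0.10). Gjb6 was at 46.1, 47.4 and 35.5 CPM in the knockouts and 64.3, 55.9 and 36.9 CPM in the controls (-0.25, SE 0.21), and it was called only without flox-het replicate 3 (-0.44, edgeR adjusted p 0.0144). Flox-het replicate 3 had the lowest Gjb6 of its group, so without it the groups no longer overlapped. Markers of choroid plexus, an epithelium next to the hippocampus, summed to 151 to 2599 CPM in the flox-het libraries and 1342 to 2059 CPM in the knockouts, with the highest value in flox-het replicate 3. Their part in the values of the astrocyte genes was not tested.

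The difference between the genotype effects at P14 and at P0 was tested as an interaction. Sparcl1 was the member that passed, with a log2 fold change of -0.57 at P0 and 0.005 at P14. In the fit of all 12 libraries the difference, P14 minus P0, was 0.56 (SE 0.14, edgeR adjusted p 0.0433). This was 1 of 10 members against 1.79% of the 18189 genes tested (1.37% in this direction). The call of Sparcl1 was kept without P0 knockout replicate 3 (0.57), without P0 wild-type replicate 3 (0.72) or without flox-het replicate 3 (0.49). It was lost in the other 9 fits that left out a library, with edgeR adjusted p from 0.0547 to 0.136. For Fam107a the difference was -0.96 (SE 0.36, edgeR adjusted p 0.248) and for Gfap it was 0.79 (SE 0.32, edgeR adjusted p 0.291). So neither genotype effect is shown to differ between the P14 and P0 comparisons, which differ in tissue, age, Cre line and control genotype. The other 7 differences were from 0.18 for Gjb6 to 0.45 for Aqp4, and 7 of the 10 members had an unadjusted p under 0.05, against 15.3% of all genes. The median over the members was 0.34 and that of all tested genes was -0.01.

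The members were then set beside 6 lists of other astrocyte genes, 112 genes in all. These lists share no gene with the members. At P0, edgeR called 2 of 105 tested genes (1.90%, against 0.909% of all genes), both higher. The median log2 fold change of the 105 was -0.12, and 76 were below 0. By DESeq2, which called 382 genes in all, 7 of the 89 list genes with an adjusted p were called. An unadjusted p under 0.05 by edgeR was reached by 31 of 105, against 16.1% of all tested genes. Without overlap of the P0 groups, 25 were lower in knockouts and 5 were higher, against 11.1% and 10.5% of all tested genes. The list of glutamate transport and recycling had the lowest median of the 6 (-0.23, 12 of 13 genes below 0). Of these 13 genes 0 were called by edgeR and 2 by DESeq2, and 6 had an unadjusted p under 0.05 by edgeR. The 2 genes called higher by edgeR were in the list of regulators of astrocyte formation. Nfia, an NFI transcription factor that starts gliogenesis, was at 82.9 ± 10.7 CPM in knockouts and 59.4 ± 4.98 CPM in wild types (SD, n = 3 each; log2 fold change 0.48, edgeR adjusted p 0.0459). Lhx2, a homeodomain factor of cortical progenitors, was at 116 ± 6.02 and 86.3 ± 7.39 CPM (0.42, edgeR adjusted p 0.0368). Lhx2 kept its call without replicate 3 of either group and Nfia only without knockout replicate 3, with log2 fold changes from 0.36 to 0.48 and from 0.40 to 0.58 over the 6 fits. So at P0 the list of regulators had a median of 0.04, and the other 5 lists had medians from -0.23 to -0.11.

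At P14, 9 of 108 tested genes of these lists were called (8.33%, against 1.99% of all genes), all of them lower in the knockouts (0.773% of all genes were called lower), and the median over the 108 was -0.08. Lcat, which esterifies cholesterol on lipoproteins made by astrocytes, fell from 33.5 ± 2.12 CPM in the controls to 20.5 ± 2.24 CPM in the knockouts (log2 fold change -0.67, edgeR adjusted p 0.00341) and kept its call in all 6 fits that left out a library. Pla2g7, a secreted phospholipase of lipid mediators, fell from 140.1 ± 13.7 to 99.0 ± 4.49 CPM (-0.47, edgeR adjusted p 0.00725), and lost its call without flox-het replicate 2 or knockout replicate 1. Among the regulators Nfib (-0.46, edgeR adjusted p 0.00500) lost its call without knockout replicate 1, while Id3 (-0.47, edgeR adjusted p 0.0352) and Nfia (-0.35, edgeR adjusted p 0.0438) kept theirs only without flox-het replicate 3 or knockout replicate 3. In the list of reactive astrocytes, 2 of 14 genes fell, Cd109 (-0.76, edgeR adjusted p 0.0144) and Serpina3n (-0.41, edgeR adjusted p 0.0180), and each kept its call in 2 of 6 such fits. The cystine transporter Slc7a11 (-0.47, edgeR adjusted p 0.0283) and the bicarbonate transporter Slc4a7 (-0.33, edgeR adjusted p 0.0343) also fell, and kept their calls only without flox-het replicate 1 or replicate 3. Log2 fold changes of these genes stayed below 0 in every fit that left out a library.

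**Figure D4:**
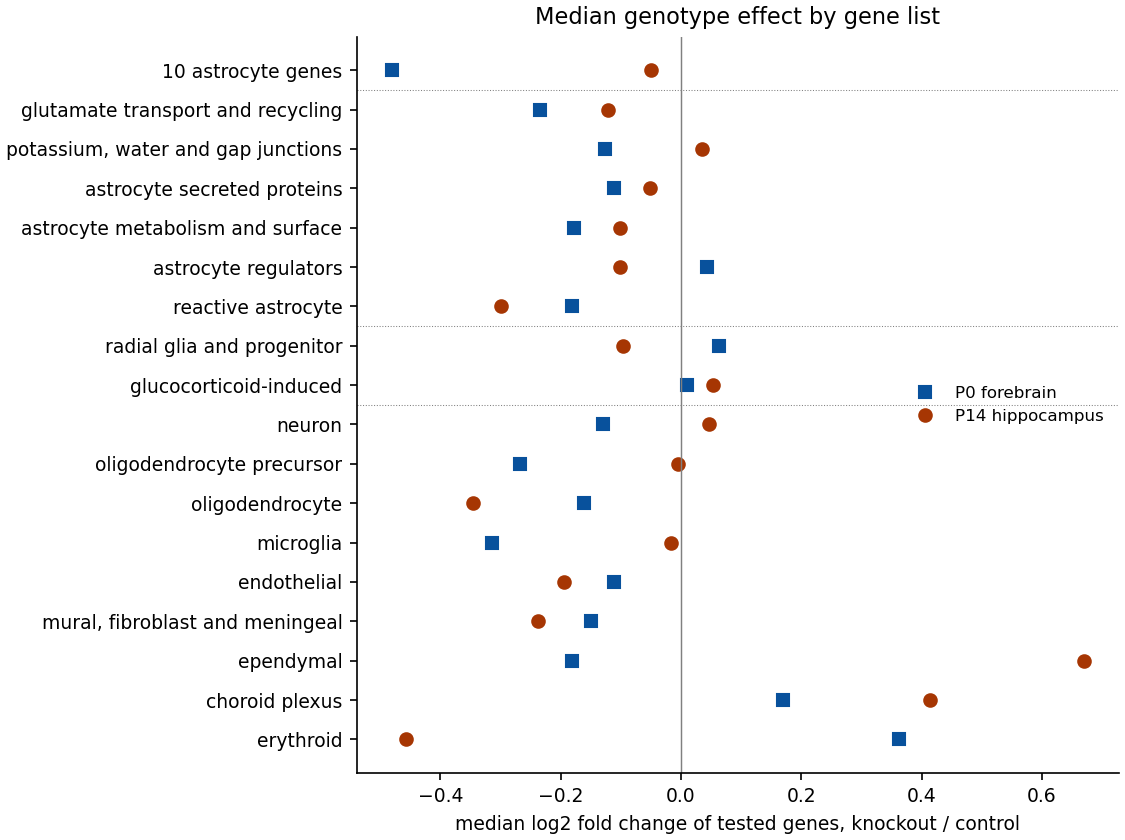
Median log2 fold change, knockout over control, of the tested genes of each list at P0 (squares) and P14 (circles); the top row holds the 10 astrocyte genes, then the astrocyte lists, lists of cell states and lists of other cell types. At P0 the 10 astrocyte genes have the lowest median shown, and at P14 their median of -0.05 lies among those of the astrocyte lists; the lists hold between 5 and 24 genes and were not tested against each other.

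Markers of other cell types were read in the same libraries. Of all tested genes, edgeR called 0.909% at P0 and 1.99% at P14. An unadjusted p under 0.05 by edgeR was reached by 16.1% and 15.2%. By DESeq2, 382 genes were called at P0 and 534 at P14. At P0, 1 of 10 neuron markers was called lower (Slc17a7, -0.54, edgeR adjusted p 0.0368), and the summed neuron markers were 5765 to 6108 CPM in knockouts and 6115 to 6503 CPM in wild types. Of 9 microglia markers 1 was called lower (P2ry12, -0.93, edgeR adjusted p 0.0368), and their sums were 73.9 to 85.9 and 83.6 to 105 CPM. Of 7 tested markers of oligodendrocyte precursors 0 were called by edgeR (2 with an unadjusted p under 0.05) and 2 by DESeq2, with sums of 181 to 188 and 210.5 to 246 CPM. For radial glia 0 of 12 were called by edgeR (4 with an unadjusted p under 0.05) and 1 by DESeq2, with sums of 1306 to 1454 and 1537 to 1566 CPM. No marker of these 4 lists was at 0 in a whole group. The summed oligodendrocyte markers were 103 to 121 CPM in knockouts and 123.7 to 124 CPM in wild types. So the sums of neuron, oligodendrocyte, precursor and radial glia markers did not overlap at P0 and were lower in the knockouts, as the sum of the astrocyte genes was. A sum follows its most abundant genes, and of the 12 radial glia markers 7 had a log2 fold change above 0, with a median of 0.06. The sum of choroid plexus markers went the other way, at 902 to 982 and 659 to 849.7 CPM. The part of these cell types in the differences of the astrocyte genes was not tested. At P14, 1 of 7 ependymal markers was called higher (Ccdc153, 1.01, edgeR adjusted p 0.0110), with sums of 39.0 to 46.9 CPM in knockouts and 23.3 to 33.1 CPM in controls. All 7 had log2 fold changes above 0, 4 with an unadjusted p under 0.05 by edgeR and 2 called by DESeq2. Of 9 mural and meningeal markers 1 was called lower (Vtn, -0.65, edgeR adjusted p 0.00892), with sums of 315 to 417 and 459 to 483 CPM. All 9 had log2 fold changes below 0, 4 with an unadjusted p under 0.05 by edgeR and 3 called by DESeq2. The sums of endothelial markers did not overlap either, at 259.9 to 279.7 CPM in knockouts and 298 to 322 CPM in controls. Of these 9 markers 8 had log2 fold changes below 0, with 0 called by edgeR (3 with an unadjusted p under 0.05) and 1 by DESeq2. All 8 oligodendrocyte markers had log2 fold changes below 0, with a median of -0.35, and sums of 3168 to 6458 and 4580.3 to 6876 CPM that overlapped. The part of these cell types in the P14 values of the astrocyte genes was not tested.

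The astrocyte lists also differed between the controls of the 2 ages. Of 108 genes 75 were higher in P14 flox-het hippocampus, 12 were lower and 87 in all were called (80.6%, against 64.0% of all genes). The receptor Gpr37l1 (5.40), Lcat (4.08), the protease Htra1 (3.50), the chaperone Clu (2.96), the glycolytic enzyme Aldoc (2.75), the potassium channel Kcnj10 (2.68) and glutamine synthetase Glul (2.45) were among the higher ones on the log2 scale. The filament Vim (-1.63) and the differentiation inhibitor Id4 (-1.20) were lower, as were the radial glia genes Fabp7 (-2.57) and Nes (-1.40). Their edgeR adjusted p were at most 8.53e-09, and each kept its call in all 12 fits that left out a library. Of 12 radial glia genes 8 were lower and 3 were higher at P14.

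Last, the profile of the members over the 12 libraries was compared with that of all other genes. The measure was the root-mean-square difference between a gene's centred log2 CPM and the mean centred profile of the 10 members, over 10884 candidate genes. The nearest were Mbnl2 (0.136), Mgll (0.138), Omg (0.141), Rgs7bp (0.144) and Rasgef1a (0.149). Mbnl2 was at 31.8 ± 3.74 CPM in P0 knockouts, 33.8 ± 2.93 in wild types, 221 ± 16.1 in P14 knockouts and 253 ± 14.9 in flox-het controls (SD, n = 3 each). Among the members, Aqp4 followed the shared profile most closely (0.215), and Aldh1l1 (1.32) and Fam107a (1.47), the members with the least and the most difference between the ages, were farthest from it. All 5 genes had higher means in both P14 groups than in both P0 groups, and the 12 libraries share that split of age and tissue, so the likeness is a description.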

How the data were processed

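Per the labels, RNA was purified with Trizol, treated with DNase I, made into Illumina TruSeq libraries and sequenced as 150 bp read pairs. The deposited values are raw counts per Ensembl gene and library, with no normalization by the authors, and the submitters' processing notes name STAR 2.7.5a, edgeR 3.12 and the builds mm10 and GRCm38. Each file has an unstranded count and 1 count per strand, the strand columns were nearly equal, and the unstranded count was used. Of 55487 identifiers, 55227 had a symbol and position in GENCODE vM21.

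P0 and P14 were each tested on their own 6 libraries, and the interaction and the P14 to P0 difference on all 12, with edgeR 4.0.16 in R 4.3.3: filterByExpr, TMM, estimateDisp, robust glmQLFit and glmQLFTest, Benjamini-Hochberg adjustment over all genes tested and a threshold of 0.05. The SE is the log2 fold change divided by the root of its F statistic. Log2 CPM for profiles used a prior count of 2. DESeq2 1.42.0 was an alternative. The fits were tested on simulated data. Replicate numbers follow accession order and pair no libraries. Intervals and spreads include counting error, and reads without molecular identifiers are not independent molecules.

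The 10 members, the 17 gene lists and the tests were chosen with earlier results of these data known. All members were named, Auts2 once, at most 4 called genes per list and comparison in order of adjusted p, and the 5 genes with the nearest profile among those with a mean log2 CPM of at least 3. Exon 7 and isoforms were not analysed here.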

Additional observations from a re-analysis of the deposited data

Results flagged for a closer look

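For 7 of the genes named, the genotype effect differed between P14 hippocampus and P0 forebrain by edgeR's interaction test, adjusted over 18189 genes. These contexts differ in tissue, age, Cre line and in the genotype of the controls, which cannot be told apart. Among the astrocyte genes this held for Sparcl1, with a difference of 0.56 (edgeR adjusted p 0.0433). The GABA transporter Slc6a11 had a log2 fold change of -0.40 at P0 and 0.23 at P14, called in neither, with a difference of 0.61 (edgeR adjusted p 0.0134) that held in 9 of 12 fits without 1 library. The NFI factors Nfia (-0.84, edgeR adjusted p 0.00186) and Nfib (-0.80, edgeR adjusted p 0.00176) had positive log2 fold changes at P0 and negative ones at P14. Both differences held in all 12 such fits. Lhx2 differed by -0.53 (edgeR adjusted p 0.0307), in 5 of 12 such fits. The neuronal glutamate transporter Slc17a7 differed by 0.56 (edgeR adjusted p 0.0334), in 6 of 12 such fits, and the microglial receptor P2ry12 by 0.90 (edgeR adjusted p 0.00654), in all 12.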

How the results depend on the processing

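At P0, 4 members were called, and 7 with DESeq2, 8 when low counts were not filtered, 8 with the number series as a term, 8 in the 4 libraries of the first series (a setting chosen after the depths had been seen), 3 in the larger strand column, 5 in 1 fit of all 12 libraries and 0 with non-robust fitting, where the adjusted p of the 4 was 0.0522 to 0.0659. Without 1 library, 0 to 8 members were called. The P0 count over all genes was 147, and became 382 with DESeq2, 625 without the filter, 50 with non-robust fitting, 284 in 1 fit of all 12 libraries, 369 with a GC content offset, 465 with the series term, 2107 in the first series and 1 to 775 without 1 library. At P14, 342 genes became 534 with DESeq2, 814 without the filter and 104 to 1808 without 1 library, and 0 to 1 members were called. For the interaction, 326 genes became 205 in the larger strand column, 531 with DESeq2, 646 without the filter and 125 to 905 without 1 library. Of the members, 1 was called, 0 with non-robust fitting, and 0 to 5 without 1 library. For the difference between the control groups, 11642 genes were called, and each setting was within 1.5 times of that.

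The direction of each member's P0 difference was the same under all settings. At P14, differences near 0 changed sign: Slc1a2 with the GC offset (0.0125) or without 1 library (-0.0598 to 0.0005), Aqp4 without 1 library (-0.3327 to 0.0057, the latter without flox-het replicate 3), Gfap with at least 10 counts per library (0.0019), no filter (0.0051), upper-quartile normalization (0.0099) or without 1 library (-0.1281 to 0.1105), and Sparcl1 with the GC offset (-0.0005), 1 fit of all 12 libraries (-0.0070) or without 1 library (-0.0618 to 0.0435). The interaction of Gjb6 changed sign without flox-het replicate 3 (range without 1 library -0.0247 to 0.4921). The difference of Aldh1l1 between the control groups changed sign with the GC offset (-0.0037), upper-quartile normalization (-0.0507) or without flox-het replicate 2 (range without 1 library -0.0663 to 0.1425). The cause of these changes was not tested. No paired analysis was possible because the labels give animal numbers and no replicate number that groups share; the number series at P0 is a term with 2 levels and pairs no animals. At P0 Gjb6 and Fam107a had the fewest reads of the members, 60 to 226 per library.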
